A study of Mus musculus with 12 samples.

Results

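Cathepsins are the proteases of the lysosome, and cystatins are the proteins that inhibit the cysteine cathepsins. The RNA of 8 cathepsins (Ctsb, Ctsz, Ctsh, Ctsl, Ctsk, Ctss, Ctsd and Ctsa) and 2 cystatins (Cst3 and Cstb) was followed in the mouse aorta after elastase infusion. These 10 genes were given by name, and each was represented by the RefSeq accession with the highest mean level, out of 24480 gene symbols and 34755 accessions in the count table. Enough counts for a test were present for 8 of the 10.

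Aortic RNA came from 12 C57BL/6J males aged 10 weeks, 4 in each of 3 groups. In the PPE week 2 and PPE week 1 groups, the infrarenal segment of the aorta received porcine pancreatic elastase (PPE), which breaks down the elastic fibres of the wall and leads to a local aneurysm, and the aorta was taken after 14 and 7 days. In the saline group the same segment was infused with saline, and the aorta was taken after 7 days. No saline group was taken at day 14, so in PPE week 2 against saline the elastase and the extra week cannot be told apart. The libraries were made from whole aortic RNA of all cell types together, so fewer cells of a type and less RNA per cell cannot be told apart. Per the labels, each group held 4 animals, and each library was taken as 1 animal.

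Cathepsins are made as inactive precursors, are tagged with mannose 6-phosphate, and mature in the acid lysosome. Macrophages and osteoclasts are rich in them, and several cysteine cathepsins can cut elastin and collagen when they leave the cell. Cystatin C, the product of Cst3, is the main secreted inhibitor of these enzymes, and cystatin B, the product of Cstb, acts inside the cell.

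The total count per library was 8343313 to 12269131. One accession, NR_046233, a precursor of ribosomal RNA, took 20.4 ± 1.13% of it in PPE week 2, 30.4 ± 6.34% in PPE week 1 and 41.3 ± 6.48% in saline (SD, n = 4 each). This left 4835305 to 9169690 counts per library for everything else. Levels are given in CPM, meaning counts per 1000000 of the library total after TMM scaling, which balances the bulk of the genes between libraries. Differences were tested with edgeR's quasi-likelihood test over 12756 accessions, and an adjusted p (Benjamini-Hochberg) under 0.05 was taken as the threshold.

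Ctss and Ctsa could not be measured well. Ctss, the cathepsin S of antigen-presenting cells, lies on chr3:95526786-95556405 of mm10 and was listed at 0 in all 12 libraries under both of its accessions. These accessions, NM_021281 and NM_001267695, share all but 3 bases each of a transcript of 1355 bases. The stretch that tells NM_001267695 apart is shown because it is so short, with the 3 coding bases found only in that accession in capitals (chr3:95529434-95529436, plus strand, GRCm38, GENCODE transcript).

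Ctss NM_001267695: ccacgctgccatCAGaagatggctgtt

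Ctss therefore carries no information here on cathepsin S RNA in either direction. Ctsa, the serine carboxypeptidase that also shields the lysosomal neuraminidase Neu1, had 123 counts over 12 libraries under NM_008906. These were 5, 0, 17 and 31 counts in PPE week 2, 11, 4, 31 and 9 in PPE week 1, and 0, 2, 5 and 8 in saline, so the groups overlapped. Ctsa fell below the filter on low counts. With the filter off, its log2 fold change was 1.25 ± 1.50 (SE) in PPE week 1 against saline, with an edgeR adjusted p of 0.731. A second Ctsa accession was listed at 0 and shares all but 28 of its bases with the first, so part of the Ctsa reads may be missing. Of the exon bases of the first, 21.7% overlap Neurl2 and Pltp on the opposite strand, and the library kit does not record strand.

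Among the cysteine cathepsins, Ctsb and Ctsz rose at PPE week 1. Ctsb encodes cathepsin B, an abundant endopeptidase that can also trim dipeptides from the ends of proteins (NM_007798, chr14:63122462-63145923, plus strand). Its level was 957, 1025, 717 and 1199 CPM in PPE week 2, 1628, 1817, 1476 and 1423 CPM in PPE week 1, and 1109, 1049.7, 1036 and 1031 CPM in saline. All 4 PPE week 1 libraries lay above every library of both other groups, and PPE week 2 spread on both sides of saline. Ctsb was 1.50-fold higher in PPE week 1 than in saline, a log2 fold change of 0.59 ± 0.13 (SE) with an edgeR adjusted p of 0.0130. It was 1.63-fold lower in PPE week 2 than in PPE week 1, a log2 fold change of -0.70 ± 0.13 with an edgeR adjusted p of 0.00493. Against saline, the PPE week 2 difference was -0.12 ± 0.13 and did not pass (edgeR adjusted p 0.736). Of the exon bases of Ctsb, 16.3% overlap Fdft1 on the opposite strand, and the library kit does not record strand.

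Ctsz encodes cathepsin Z, a carboxypeptidase found mainly in immune cells (NM_022325, chr2:174427494-174439039, minus strand). Its level was 141, 222, 147 and 284 CPM in PPE week 2, 259, 353, 257 and 282 CPM in PPE week 1, and 147, 185, 169.8 and 153 CPM in saline. The PPE week 1 libraries were all above the saline libraries, while PPE week 2 split into replicates 2 and 4, above saline, and replicates 1 and 3, below the saline median. Ctsz was 1.76-fold higher in PPE week 1 than in saline, a log2 fold change of 0.81 ± 0.19 (edgeR adjusted p 0.0182). PPE week 2 differed from saline by 0.28 ± 0.19 (edgeR adjusted p 0.520) and from PPE week 1 by -0.53 ± 0.19 (edgeR adjusted p 0.113), neither past the threshold.

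Ctsl took the opposite direction and was the only 1 of the 8 tested genes to differ from saline at both times. Ctsl encodes cathepsin L, an endopeptidase of most cell types that can cut elastin (NM_009984, chr13:64361890-64370772, minus strand). Its level was 365, 310.0, 367 and 285 CPM in PPE week 2, 394, 357, 391 and 397 CPM in PPE week 1, and 474, 557, 485 and 532 CPM in saline. Every library infused with PPE lay below every saline library. Ctsl was 1.33-fold lower in PPE week 1 than in saline, a log2 fold change of -0.41 ± 0.11 (edgeR adjusted p 0.0319), and 1.54-fold lower in PPE week 2, a log2 fold change of -0.63 ± 0.11 (edgeR adjusted p 0.00769). Both comparisons share the 4 saline libraries. The difference between the PPE groups, -0.21 ± 0.11, did not pass (edgeR adjusted p 0.295).

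Ctsk and Ctsh did not pass in any comparison of the main fit. Ctsk encodes cathepsin K, the collagen-degrading enzyme of osteoclasts (NM_007802, chr3:95499210-95509387, plus strand). Its level was 157, 94.3, 134 and 87.6 CPM in PPE week 2, 158, 97.0, 115 and 110.3 CPM in PPE week 1, and 151, 157, 164 and 119.5 CPM in saline. The 3 groups overlapped, with log2 fold changes against saline of -0.33 ± 0.19 in PPE week 2 and -0.30 ± 0.19 in PPE week 1 (edgeR adjusted p 0.433 and 0.414). Ctsh encodes cathepsin H, an aminopeptidase (NM_007801, chr9:90054267-90076095, plus strand). Its level was 6.70, 22.2, 9.88 and 19.9 CPM in PPE week 2, 27.7, 31.7, 27.9 and 32.2 CPM in PPE week 1, and 16.5, 33.9, 21.5 and 20.3 CPM in saline. All PPE week 2 libraries lay below all PPE week 1 libraries, again with replicates 2 and 4 above replicates 1 and 3. The log2 fold change of Ctsh between them was -1.02 ± 0.34 with an edgeR adjusted p of 0.0840. This difference passed in 4 of 11 other fits: DESeq2, limma-voom, no low-count filter and the replicate number as a block. It also passed in 2 of 12 fits that left out 1 library. The second Ctsh accession, NM_001312649, was listed at 0, and GENCODE pairs both with 1 transcript, so part of the Ctsh reads may be missing.

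Ctsd, the aspartic cathepsin D, which starts the digestion of many proteins in the lysosome, did not pass either (NM_009983, chr7:142375910-142387827, minus strand). Its level was 985, 668, 747 and 840.0 CPM in PPE week 2, 1092, 1312, 1026 and 945 CPM in PPE week 1, and 999, 965, 870.2 and 902 CPM in saline. The groups overlapped in each comparison. Its log2 fold change was 0.23 ± 0.13 in PPE week 1 against saline (edgeR adjusted p 0.326), -0.21 ± 0.13 in PPE week 2 against saline (0.456) and -0.43 ± 0.13 in PPE week 2 against PPE week 1 (0.0513). The last of these passed in 2 of 11 other fits, limma-voom and no low-count filter, and in 1 of 12 fits that left out 1 library. Of its exon bases, 38.0% lie also in Gm49369, a gene model on the same strand.

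The inhibitors differed from each other. Cst3, the secreted cystatin C, had 421, 399, 607 and 444 CPM in PPE week 2, 303, 275, 343 and 339 CPM in PPE week 1, and 316, 400.1, 469.6 and 385 CPM in saline (NM_009976, chr2:148871722-148875512, minus strand). All PPE week 2 libraries lay above all PPE week 1 libraries, and saline overlapped both. Cst3 was 1.48-fold higher in PPE week 2 than in PPE week 1, a log2 fold change of 0.57 ± 0.15 (edgeR adjusted p 0.0296). Against saline it was 0.25 ± 0.15 in PPE week 2 (edgeR adjusted p 0.422) and -0.32 ± 0.15 in PPE week 1 (0.221). Cstb, the intracellular cystatin B, had 35.3, 47.0, 41.6 and 60.4 CPM in PPE week 2, 61.2, 71.3, 56.9 and 48.9 CPM in PPE week 1, and 30.1, 43.0, 32.7 and 52.5 CPM in saline (NM_007793, chr10:78425670-78427622, plus strand). The highest saline library exceeded the lowest PPE week 1 library. The log2 fold change of Cstb was 0.59 ± 0.22 in PPE week 1 against saline and did not pass (edgeR adjusted p 0.114). The authors' deposited table lists 0.55 for it with an adjusted p of 0.0453.

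**Figure D1:**
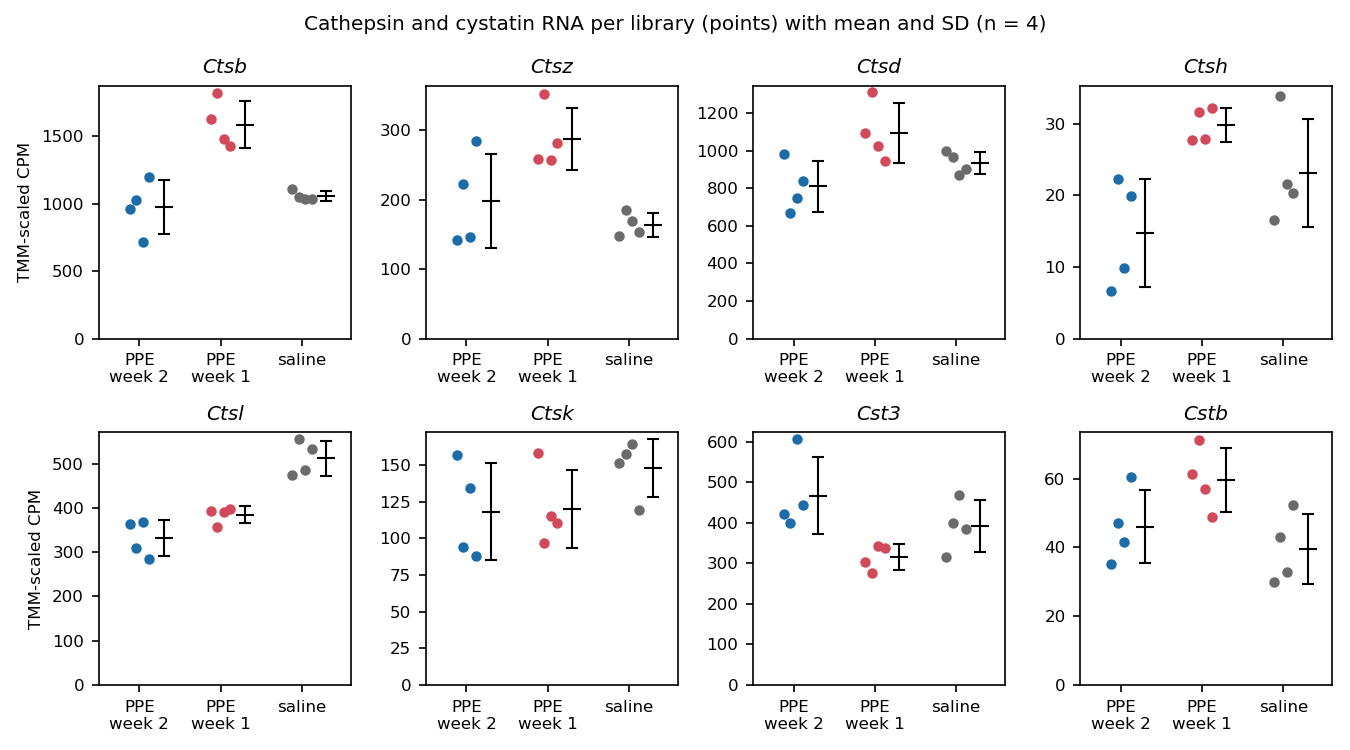
Level of the 8 tested cathepsin and cystatin genes in TMM-scaled CPM (vertical axes, each starting at 0) in the PPE week 2, PPE week 1 and saline groups, with 1 point per library and the mean and SD of 4 libraries. The PPE week 1 points of Ctsb lie between 1423 and 1817 CPM, above all others, and the saline points of Ctsl between 474 and 557 CPM, above all PPE points.

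At PPE week 1 against saline, 2 of the 8 tested genes rose (Ctsb and Ctsz) and 1 fell (Ctsl), and the same 3 were the ones whose libraries did not overlap. Of all 12756 accessions, 3.98% were called higher and 3.91% lower, 7.89% in either direction, and 12.1% had PPE week 1 libraries all above saline and 9.01% all below. At PPE week 2 against saline, none rose in edgeR and Ctsl alone fell, and DESeq2 and limma-voom called none higher either. Ctsl was also the only 1 of the 8 with an unadjusted edgeR p under 0.05 there, against 2113 of all 12756 accessions. In PPE week 1 against saline and in PPE week 2 against PPE week 1, 5 of the 8 had such a p, against 2768 and 2613 accessions. At PPE week 2 against saline, 1.30% of all accessions were called higher and 1.35% lower, 2.65% together. Of all accessions, 4.55% did not overlap upwards and 4.44% downwards there, against 0 and 1 of the 8 genes. In PPE week 2 against PPE week 1, Cst3 rose and Ctsb fell, against 3.77% of all accessions called higher and 2.82% lower, 6.59% together. Of all accessions, 7.24% did not overlap upwards and 8.68% downwards, against 1 (Cst3) and 2 (Ctsb and Ctsh) of the 8 genes.

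The median log2 fold change of the 8 genes was 0.30 in PPE week 1 against saline, -0.16 in PPE week 2 against saline and -0.40 in PPE week 2 against PPE week 1. Over all accessions the medians were 0.00272, 0.0504 and 0.0190. The genes did not move as 1 block: Ctsb, Ctsz, Ctsd, Ctsh and Cstb had positive values at PPE week 1 against saline, and Ctsl, Ctsk and Cst3 negative ones. Between the PPE groups, in PPE week 2 against PPE week 1, 7 of the 8 had negative values and Cst3 a positive one, but Ctsk, near 0, turned to 0.19 with scaling by library size alone.

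**Figure D2:**
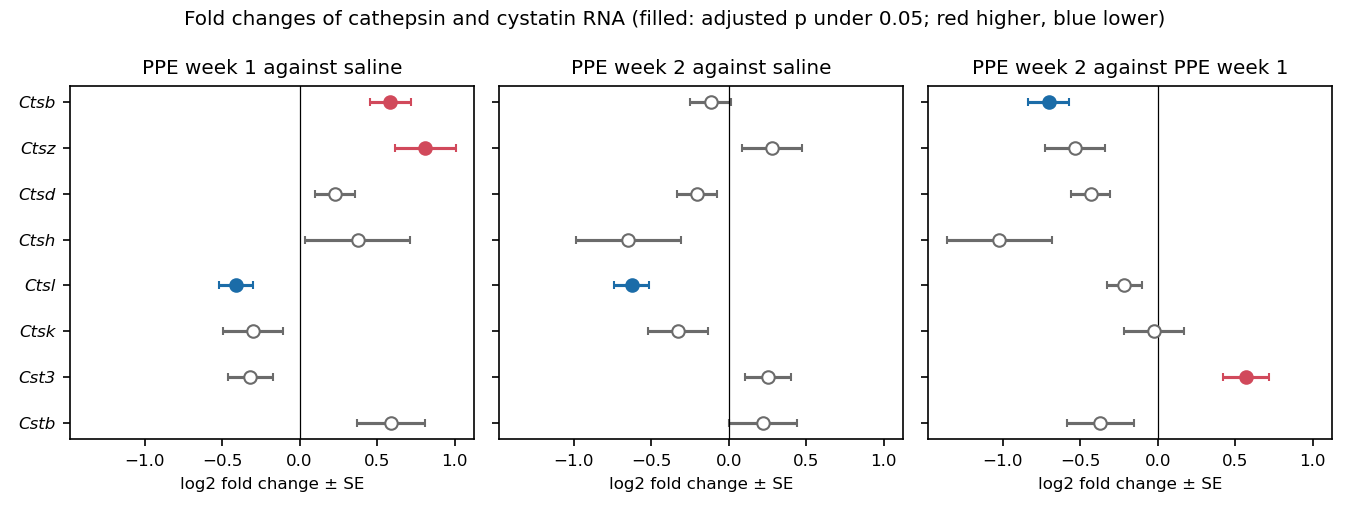
Log2 fold change with its SE (horizontal axis) of the 8 tested genes in the 3 comparisons, where filled points passed an adjusted p under 0.05, red higher and blue lower. Ctsl is filled against saline at both times, and Ctsb changes sides between the first panel (0.59) and the last (-0.70).

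How firmly these calls stand differs by gene. Ctsl at PPE week 2 against saline and Ctsb in PPE week 2 against PPE week 1 passed in each of 12 fits that left out 1 library, with edgeR adjusted p up to 0.0287 and 0.0228. Ctsb at PPE week 1 lost its call only without PPE week 1 replicate 2 (edgeR adjusted p 0.0576). Ctsz lost it without PPE week 1 replicate 2 (0.0716) and without saline replicate 1 or 4. Ctsl at PPE week 1 lost it without any 1 of the PPE week 1 libraries or of saline replicates 2, 3 and 4 (up to 0.113). Cst3 lost its call without any 1 of the PPE week 1 libraries or without PPE week 2 replicate 3 (up to 0.114). The 12 fits include those without a library of the group not compared. Of 11 other fits, Ctsl at PPE week 2 against saline passed in 8 and Ctsb between the PPE groups in 9. At PPE week 1 against saline, Ctsb and Ctsz passed in 10 each and Ctsl in 7, and Cst3 between the PPE groups passed in 9.

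The ribosomal precursor share differed between the groups, with PPE week 2 at 19.5 to 22.1% of counts, PPE week 1 at 21.0 to 34.6% and saline at 36.2 to 49.9%. With this share as a covariate, no call of the 8 genes passed, although the log2 fold changes kept their directions: 0.61 for Ctsb, 0.96 for Ctsz and -0.35 for Ctsl at PPE week 1 against saline, and -0.51 for Ctsl at PPE week 2. The share and the groups cannot be told apart. Scaling by library size alone, which leaves that precursor in the balance, moved the median of all accessions to 0.28 in PPE week 1 and 0.54 in PPE week 2 against saline. Ctsl then stood at -0.13 and -0.14 (edgeR adjusted p 0.681 and 0.565), still below the median of all accessions.

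Ratios of 2 genes within a library do not depend on such scaling, and they are given as a description. Ctsb, Ctsz, Ctsl and Cst3 were already called in these same libraries, so a separation of their ratios adds no further support. Ctsb counts per Ctsl count were 2.62, 3.31, 1.95 and 4.21 in PPE week 2, 4.14, 5.08, 3.77 and 3.58 in PPE week 1, and 2.34, 1.89, 2.14 and 1.94 in saline. All PPE week 1 ratios exceeded all saline ratios, and PPE week 2 spanned both. Ctsz counts per Ctsl count were 0.388, 0.717, 0.399 and 0.997 in PPE week 2, 0.658, 0.986, 0.656 and 0.711 in PPE week 1, and 0.310, 0.333, 0.350 and 0.288 in saline, so every PPE library lay above every saline library. Against the inhibitor, Ctsb counts per Cst3 count were 2.27, 2.57, 1.18 and 2.70 in PPE week 2, 5.37, 6.60, 4.30 and 4.20 in PPE week 1, and 3.51, 2.62, 2.21 and 2.68 in saline. The PPE week 1 libraries stood above both other groups. Ctsl counts per Cst3 count averaged 0.723 ± 0.121 in PPE week 2, 1.23 ± 0.0834 in PPE week 1 and 1.33 ± 0.204 in saline (SD, n = 4 each), and each PPE week 2 library lay below each library of the other groups. Ctsl counts per Ctsk count overlapped between the groups, at 2.33 to 3.29 in PPE week 2, 2.49 to 3.68 in PPE week 1 and 2.95 to 4.45 in saline. Ctsk per Cst3 overlapped as well, while Ctsz per Cst3 and Ctsb per Ctsd in PPE week 1 lay above saline. A count ratio of 2 genes also holds the ratio of their transcript lengths, so only its differences between groups can be read.

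**Figure D3:**
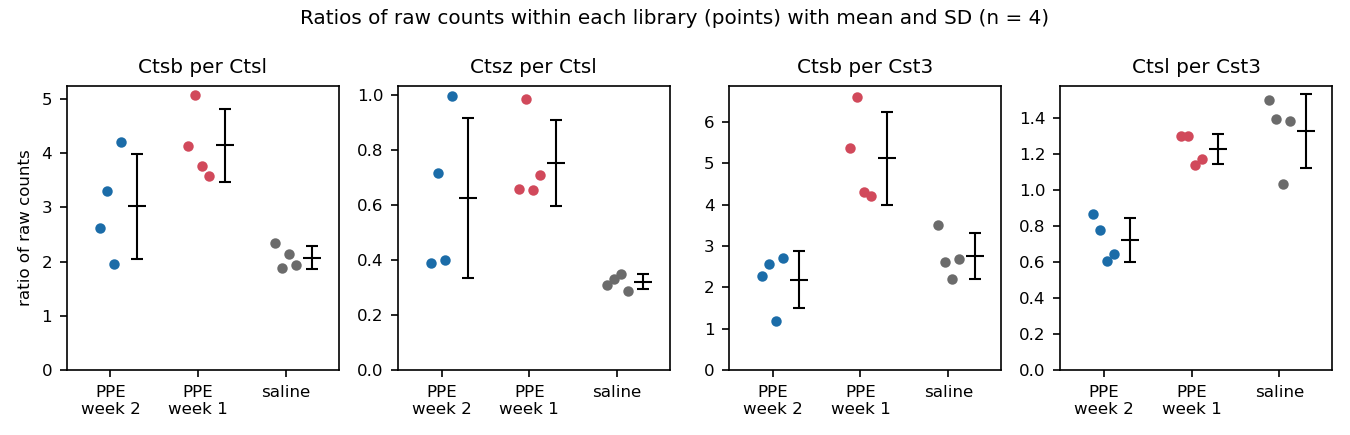
Ratio of raw counts of 2 genes within each library (vertical axes, from 0) in the PPE week 2, PPE week 1 and saline groups, with 1 point per library and the mean and SD of 4. Ctsz per Ctsl is at most 0.350 in saline and at least 0.388 in all PPE libraries, and Ctsl per Cst3 is at most 0.867 in PPE week 2.

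Per length of transcript, the order of the genes also shifted. For the 7 genes with a single accession, levels in CPM per kilobase of exon can be set side by side. At PPE week 2, Cst3 led with 544 ± 109.9 CPM per kilobase, ahead of Ctsd with 381 ± 63.9, with SDs that overlapped, and of Ctsb with 205 ± 42.1. In PPE week 1, Ctsd led with 514 ± 73.9, ahead of Cst3 with 366 ± 37.2 and Ctsb with 334 ± 37.2, the last pair within their spread. In saline, Cst3 with 457 ± 73.5 and Ctsd with 439 ± 27.7 lay within their spread, ahead of Ctsl with 259.7 ± 19.8 and Ctsb with 223 ± 7.56 (SD, n = 4 each). Ctsl and Ctsz were level in PPE week 1, at 195 ± 9.34 and 199.6 ± 31.1, whereas in saline Ctsz had 114 ± 11.9, below the 259.7 of Ctsl. Ctsk and Cstb held the lowest places in every group, with 78.1 ± 21.7 and 76.4 ± 17.7 in PPE week 2, 79.4 ± 17.5 and 98.8 ± 15.5 in PPE week 1, and 98.0 ± 13.1 and 65.6 ± 17.0 in saline. Bases shared with Gm49369 and Fdft1 are part of the lengths used for Ctsd and Ctsb. Whether reads in those bases were counted is not known.

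The scatter among replicates was uneven. Ctsb varied by 20.5% of its mean in PPE week 2, 11.1% in PPE week 1 and 3.39% in saline, and Ctsz by 34.1%, 15.6% and 10.5% in the same order (SD over mean, n = 4 each). Of the PPE week 2 libraries, replicates 2 and 4 had the 2 highest levels of Ctsb, Ctsz, Ctsh and Cstb and the 2 lowest of Ctsl and Ctsk. The summed level of 20 macrophage and monocyte markers followed the same split, with 1991, 3846, 1804 and 4269 CPM in PPE week 2, 5281, 6542, 5353 and 5394 CPM in PPE week 1, and 2949, 3362, 3068 and 2810 CPM in saline. All PPE week 1 libraries lay above all others on that sum. As a background for this list and those below, 3.98% of all accessions were called higher and 3.91% lower at PPE week 1 against saline. These shares were 1.30% and 1.35% at PPE week 2 against saline, and 3.77% and 2.82% in PPE week 2 against PPE week 1. Of the 20 markers 17 were tested, Itgam was listed at 0 throughout, and Cd163 and Trem2 fell below the filter. At PPE week 1 against saline 5 rose and none fell (median log2 fold change 1.20), at PPE week 2 none passed (median 0.24), and in PPE week 2 against PPE week 1 4 fell (median -1.04). Those 2 counts ran from 1 to 10 when 1 library was left out, and all libraries but PPE week 2 replicate 2 moved both by over 1.5 times. Cd68, a lysosomal glycoprotein of macrophages, averaged 51.0 ± 18.0 CPM in PPE week 2, 119.5 ± 16.6 in PPE week 1 and 42.8 ± 4.89 in saline, and kept its calls in all 12 such fits. With the covariate, 1 marker rose at PPE week 1 against saline and none fell between the PPE groups. These counts were 13 and 8 with DESeq2, 9 and 12 with limma-voom, 15 and 1 with 8 libraries and 11 and 1 with library size alone. The part of macrophage number in the cathepsin values was not tested.

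For Ctsk, markers of osteoclasts were looked at beside it. Of 11 such markers, Calcr, Dcstamp, Nfatc1 and Oscar were listed at 0 in every library, each with several accessions, Ocstamp fell below the filter and 6 were tested. The sum over the 11 was 219 to 342 CPM in PPE week 2, 225 to 333 CPM in PPE week 1 and 265 to 368 CPM in saline, and overlapped between the groups. Much of this sum was Itgb3, with 126 to 247 CPM in PPE week 2, 80.4 to 123 CPM in PPE week 1 and 127 to 243 CPM in saline. At PPE week 1 against saline Atp6v0d2 and Itgb3 fell and none rose, at PPE week 2 against saline Atp6v0d2 fell, and none passed between the PPE groups. The median log2 fold changes of the 6 were 0.38, -0.032 and -0.33 in these 3 comparisons, and 4 of the 6 had positive values at PPE week 1. The call of Itgb3, an integrin chain also present on other cells, was lost without any 1 of the PPE week 1 libraries or of saline replicates 1, 3 and 4. It was also lost with the covariate, without the low-count filter and with library size alone.

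The other cathepsins and cystatins were mostly too low for a test. Of 20 further family members, 6 were tested, namely Ctsc, Ctse, Ctsf, Ctso, Ctsw and Cst7, and 7 were listed at 0. Ctsw, a cathepsin of natural killer and cytotoxic T cells, rose to 20.9 ± 1.11 CPM in PPE week 1, against 3.66 ± 1.93 CPM in saline (log2 fold change 2.50 ± 0.59, edgeR adjusted p 0.0186), a call lost without PPE week 1 replicate 2 or saline replicate 4. At PPE week 2 Ctsw had 18.5 ± 13.4 CPM, with single libraries between 3.15 and 29.8, and its call against saline (2.32 ± 0.58, edgeR adjusted p 0.0473) was lost in 10 of the 12 fits without 1 library. Ctsc, which activates the serine proteases of granules, fell to 157 ± 93.8 CPM in PPE week 2, against 405 ± 43.9 CPM in PPE week 1 (log2 fold change -1.37 ± 0.36, edgeR adjusted p 0.0440), and this call was also lost in 10 of the 12. Among these 12, only the fits without PPE week 2 replicate 2 or 4 kept the Ctsc call, and only those without PPE week 2 replicate 1 or 3 kept the later Ctsw call. With the ribosomal precursor share as a covariate, each of these Ctsw and Ctsc calls was lost, and the Ctsw call at PPE week 1 was also lost with limma-voom. In 11 other fits, the later Ctsw call passed in 6 and the Ctsc call in 5.

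Other lysosomal enzymes rose at PPE week 1 more often than they fell. Of 38 hydrolases and activators 34 were tested, and 6 rose and none fell at PPE week 1 against saline (median log2 fold change 0.47, against 0.00272 over all accessions). Of all accessions, 3.98% were called higher and 3.91% lower there. Without PPE week 1 replicate 2 only 3 rose, with the ribosomal precursor share as a covariate 0, with library size alone 10 and with the 8 libraries compared alone 12. Grn, the precursor of lysosomal granulins, was 1.03 ± 0.20 higher on the log2 scale (edgeR adjusted p 0.00706), with 493 ± 181 CPM in PPE week 2, 788 ± 88.9 in PPE week 1 and 385 ± 10.4 in saline. Gm2a, the activator of ganglioside breakdown, was 0.83 ± 0.18 higher (edgeR adjusted p 0.0103). Neu1, the neuraminidase that Ctsa protects, was 0.98 ± 0.27 higher (edgeR adjusted p 0.0367), but lost its call without any 1 of the PPE week 1 or saline libraries. At PPE week 2 against saline only Plbd2 rose (0.60 ± 0.15, edgeR adjusted p 0.0403) and none fell (median 0.027), and Plbd2 lost its call in 10 of the 12 fits without 1 library, all but those without PPE week 2 replicate 1 or saline replicate 4. The count there was 11 with library size alone, 3 with DESeq2 and 0 with the covariate, with the replicate block, without the low-count filter and with 8 libraries.

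Between the PPE groups, in PPE week 2 against PPE week 1, Plbd2 rose and 4 hydrolases fell (median -0.35). The rise of Plbd2 was lost without any 1 of the PPE week 1 libraries, PPE week 2 replicates 1, 3 and 4 or saline replicate 3, and with the covariate, the replicate block or no low-count filter. Lgmn, the asparaginyl endopeptidase that processes the cathepsin precursors, had 167, 477, 186 and 459 CPM in PPE week 2, 930.1, 842, 692 and 774 CPM in PPE week 1, and 425, 375, 382 and 373 CPM in saline. All PPE week 1 libraries lay above all others, and PPE week 2 replicates 2 and 4 again above replicates 1 and 3. Lgmn fell by 1.33 ± 0.31 on the log2 scale between the PPE groups (edgeR adjusted p 0.0277), a call lost when PPE week 1 replicate 1, 2 or 4 was left out, or replicate 3 of PPE week 2. Gusb and Acp2, a glucuronidase and a phosphatase, fell by 0.70 ± 0.18 and 0.68 ± 0.18 (edgeR adjusted p 0.0318 and 0.0344), and leaving out 1 library ended the first call in 5 and the second in 6 of 12 fits. This count was 0 to 2 when any 1 PPE week 1 library, or replicate 1 or 3 of PPE week 2, was left out, and 9 without PPE week 2 replicate 2. It was 7 with DESeq2 and with limma-voom, 1 with 8 libraries and 0 with the covariate and with library size alone.

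Of 27 lysosomal membrane proteins 22 were tested. At PPE week 1 against saline 5 rose and none fell (median 0.28), against 3.98% of all accessions called higher and 3.91% lower. In the fits without 1 library 4 to 5 rose, but 1 with the covariate. Slc11a1, the metal pump of phagocyte lysosomes, was 1.55 ± 0.31 higher, Laptm5, a lysosomal protein of blood cells, 1.51 ± 0.27 and Cd68 1.48 ± 0.23 (edgeR adjusted p 0.00752, 0.00684 and 0.00156). At PPE week 2 against saline none passed (median 0.032). Between the PPE groups, in PPE week 2 against PPE week 1, Abca2 rose (0.71 ± 0.20, edgeR adjusted p 0.0416, lost in 8 of 12 fits without 1 library) and 4 fell (median -0.31), with Cd68 lower by 1.23 ± 0.22 on the log2 scale (edgeR adjusted p 0.00403). The count of 4 was 1 to 2 when any 1 PPE week 1 library, or replicate 1 or 3 of PPE week 2, was left out, 7 with DESeq2, 1 with 8 libraries or library size alone and 0 with the covariate.

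In the proton pump that acidifies the lysosome, 1 subunit was called. Of 19 subunits 17 were tested, and Atp6v0d2 fell at PPE week 1 and at PPE week 2 against saline, with medians over the list of 0.20 and 0.044. This 1 of 17 stood against 3.91% and 1.35% of all accessions called lower in these comparisons, so it says little about the pump as a list. No subunit passed in PPE week 2 against PPE week 1 (median -0.18). Atp6v0d2, a variant subunit best known from osteoclasts and macrophages, had 19.3, 9.58, 23.1 and 10.2 CPM in PPE week 2, 18.4, 13.4, 21.6 and 21.7 CPM in PPE week 1, and 36.8, 64.6, 45.4 and 53.1 CPM in saline. Every PPE library lay below every saline library, as for Ctsl. Its log2 fold change was -1.41 ± 0.30 in PPE week 1 and -1.68 ± 0.30 in PPE week 2 (edgeR adjusted p 0.00982 and 0.00787), and both calls held in all 12 fits without 1 library but were lost with the ribosomal precursor share as a covariate.

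Genes that send cathepsins to the lysosome split in direction. Of 17 genes of mannose 6-phosphate tagging and sorting 14 were tested, with 2 higher and 1 lower at PPE week 1 against saline (median 0.34), 1 higher and 1 lower at PPE week 2 (median 0.0061) and 1 lower in PPE week 2 against PPE week 1 (median -0.043). Of all accessions, 3.98% were called higher and 3.91% lower in the first of these comparisons. Igf2r, the large mannose 6-phosphate receptor, had 366, 337, 369 and 327 CPM in PPE week 2, 421, 395, 398 and 364 CPM in PPE week 1, and 483, 500.1, 542 and 529 CPM in saline, with every PPE library below every saline library. It fell by 0.55 ± 0.10 on the log2 scale in PPE week 2 against saline (edgeR adjusted p 0.00769), a call that held without any 1 library. In PPE week 1 it fell by 0.38 ± 0.10 (edgeR adjusted p 0.0270). That call was lost in 7 of 12 such fits, those without 1 of the PPE week 1 libraries or saline replicates 2, 3 and 4. Of 11 other fits, each of these 2 Igf2r calls passed in 8. Both were lost with library size alone and with the covariate. The PPE week 2 call was also lost with the 8 libraries compared alone, and the PPE week 1 call without the low-count filter. Gnptab, a subunit of the enzyme that adds the tag, averaged 101 ± 10.1 CPM in PPE week 2, 153 ± 12.7 in PPE week 1 and 104 ± 1.21 in saline. It was 0.55 ± 0.12 higher in PPE week 1 than in saline and 0.60 ± 0.12 lower in PPE week 2 than in PPE week 1 on the log2 scale (edgeR adjusted p 0.0133 and 0.00811). Gga1, an adaptor of the sorting step, was 0.84 ± 0.22 higher in PPE week 1 and 0.90 ± 0.22 higher in PPE week 2 than in saline (edgeR adjusted p 0.0285 and 0.0404), and leaving out 1 library ended the first call in 6 and the second in 8 of 12 fits. With the covariate, none of these sorting genes passed in any comparison.

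Among 13 regulators of lysosomal genes, 9 were tested. Spi1, which encodes the myeloid factor PU.1, rose at PPE week 1 against saline (2.27 ± 0.53 on the log2 scale, edgeR adjusted p 0.0235). This call was lost without PPE week 1 replicate 2 or saline replicate 2, 3 or 4. It was also lost with the covariate, with the replicate block and without the low-count filter. Spi1 was the only 1 of the 9 called there, against 3.98% of all accessions called higher and 3.91% lower. None of the 9 passed in either other comparison, and the medians were 0.042 in PPE week 1 against saline, -0.19 in PPE week 2 against saline and -0.13 in PPE week 2 against PPE week 1.

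**Figure D4:**
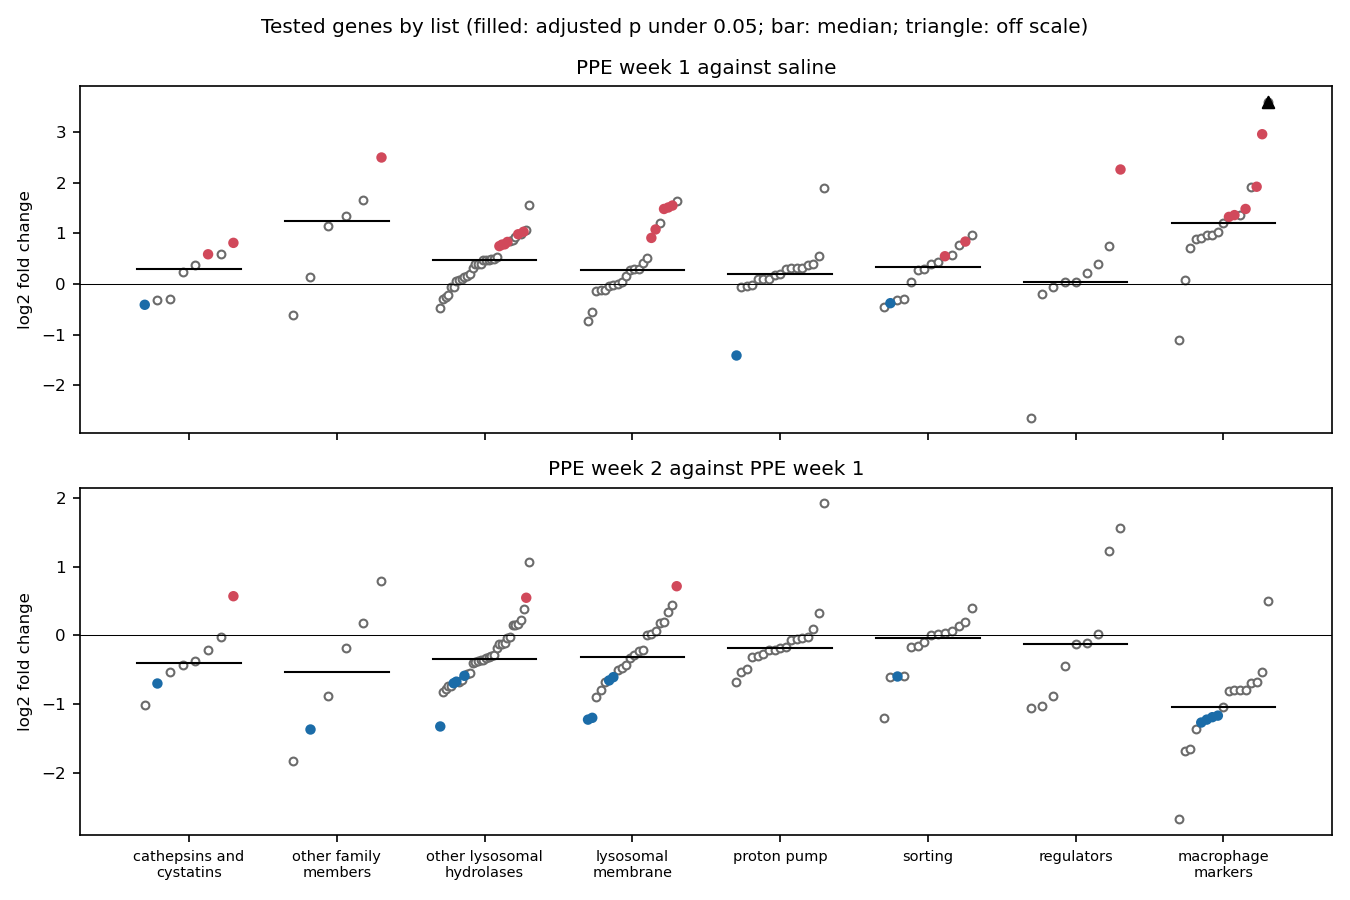
Log2 fold change (vertical axes) of every tested gene of the cathepsin and cystatin set, 6 related lists and the macrophage markers, in PPE week 1 against saline (top) and PPE week 2 against PPE week 1 (bottom), with bars at the medians, filled points past an adjusted p under 0.05 and 1 triangle for Marco, which is off scale because it was at 0 in all saline libraries. Filled points of the hydrolases and membrane proteins lie above 0 in the top panel, 6 and 5 of them, and 4 of each lie below 0 in the bottom panel.

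The sequences upstream of 3 genes are shown from RefSeq's promoter table for GRCm38.p6: the called genes Ctsz and Cst3, and Ctsd, which carries the E-box TCACGTGA bound by the lysosomal regulators of the TFEB family. Each is the 250 bases before the annotated start, 5′ to 3′ on the gene's minus strand: chr2:174439040-174439289 for Ctsz, chr2:148875513-148875762 for Cst3 and chr7:142387828-142388077 for Ctsd. Capitals mark matches, on either strand, to TCACGTGA, CACGTG (also contained in TCACGTGA), the GC box GGGCGG, the PU.1 site GAGGAAGT and the AP-1 site TGANTCA.

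Ctsz promoter: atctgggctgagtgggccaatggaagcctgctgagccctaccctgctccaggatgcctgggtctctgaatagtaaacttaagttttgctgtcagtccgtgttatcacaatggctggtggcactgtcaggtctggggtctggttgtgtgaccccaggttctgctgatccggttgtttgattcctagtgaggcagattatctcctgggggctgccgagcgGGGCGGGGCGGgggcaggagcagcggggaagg

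Cst3 promoter: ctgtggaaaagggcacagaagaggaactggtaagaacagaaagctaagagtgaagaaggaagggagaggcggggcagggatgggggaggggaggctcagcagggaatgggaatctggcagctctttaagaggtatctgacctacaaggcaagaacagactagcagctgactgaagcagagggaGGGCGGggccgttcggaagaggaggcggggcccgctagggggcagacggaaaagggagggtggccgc

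Ctsd promoter: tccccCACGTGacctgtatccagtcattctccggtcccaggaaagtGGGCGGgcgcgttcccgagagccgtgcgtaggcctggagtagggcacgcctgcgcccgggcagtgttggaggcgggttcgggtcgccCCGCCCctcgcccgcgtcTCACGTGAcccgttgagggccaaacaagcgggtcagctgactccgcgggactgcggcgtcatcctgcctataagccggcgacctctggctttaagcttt

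The table held 8 windows for 7 of the 10 genes, and Ctsb, Ctsh and Cstb are only named. The Ctsl window, chr13:64370521-64370770, lies inside the Ctsl span given above, because the table uses a start further into the gene, so it is not shown as a promoter. The window of a second start of Ctsa likewise lies inside that gene. TCACGTGA was found in 2 of the 8 windows, 99 bases before the start of Ctsd and 13 bases before that second start of Ctsa, against 0.785% of 32851 promoters of the same length. CACGTG was found in 3 windows, those 2 and the window inside Ctsl, against 6.02% of promoters. The GC box was found in 4 windows (Ctsz, Cst3, Ctsd and Ctss), against 32.7%. GAGGAAGT and TGANTCA were found in none of the 8 windows, against 2.44% and 6.75%, which says only that these letters are not in these windows.

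The genes most alike in pattern were searched for each tested gene over 6920 genes with at least 10 CPM on average, by Pearson's r of log2 CPM over the 12 libraries. All pairs share the same libraries and their scaling, and the differences between groups enter r, so it is a description. Ctsb was most like Fli1 (0.966) and Akr1a1 (0.965), and Ctsz most like Sh3bgrl3 (0.977) and Ccdc88b (0.973). Ctsl was most like Atp6v0d2 (0.974) and Mib1 (0.955). Ctsh was closest to Ripk1 (0.950) and Emb (0.948), Ctsk to Ipo9 (0.916) and Plce1 (0.902), and Ctsd to Msrb1 (0.894) and Usp42 (0.876). Of the inhibitors, Cst3 was closest to Kank4 (0.957) and Osr1 (0.934), and Cstb to Dusp6 (0.908) and Atf6 (0.905).

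For the genes called here, the authors' deposited table of PPE week 1 against control lists log2 fold changes of 0.78 for Ctsz, 0.56 for Ctsb and -0.43 for Ctsl, with adjusted p of 3.74e-07, 2.21e-06 and 0.000344. Their deposited table of PPE week 2 against control lists -0.60 for Ctsl with an adjusted p of 0.00779. In that second table, the authors' deposited adjusted p of the other 7 genes was 0.452 or higher.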

How the data were processed

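Aortic RNA of 12 mice was made into libraries with a TruSeq v2 kit, per the labels' protocols, which does not record strand. Build mm10 and the tools DESeq2 and bcl2fastq, with no version, appear in the submitters' processing notes. The name of the aligner, counter or annotation is not given in the sources used here. Raw counts by RefSeq accession were deposited by the authors, as were 2 tables comparing each PPE group with control by a log2 fold change, p-value and adjusted p-value per accession, per the file headers. Reads shared between accessions of a gene appear to be left out, so genes with several accessions may be undercounted. RefSeq's table for GRCm38.p6 named 34424 of 34755 accessions and GENCODE's a further 192.

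From the counts, edgeR 4.0.16 in R 4.3.3 was run on accessions kept by filterByExpr with default settings (12756, of 12273 genes), with TMM scaling and a robust quasi-likelihood fit of all 12 libraries, 1 mean per group. Tests were two-sided, adjusted by Benjamini-Hochberg across the 12756 accessions, with a threshold of 0.05. An SE was taken as the absolute log2 fold change over the root of its F statistic. Group values are means with SD of CPM after TMM. The test was tried on simulated counts. No 2 libraries of the same group agreed within sampling noise (chi-square per accession 16.0 to 96.2 between replicates). Raw library totals set the scale there, so differences in the ribosomal precursor share enter these values. Among counts of 2 to 20, 66.0 to 75.6% were even, so halved counts were among the alternatives, with DESeq2 1.42.0, limma-voom (limma 3.58.1), other scalings, filters and samples, and leaving out each library.

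The genes, the 16 companion lists (6 of lysosomal or family genes and 10 of cell type markers, with 252 symbols) and the tests were chosen with earlier results of these data known. Named are all 10 genes, from each list the called genes with the 3 largest absolute log2 fold changes per comparison, of which the text gives those closest to cathepsin biology, and the 2 genes most alike per tested gene (log2 CPM with a prior count of 2). Macrophages also express many of the lysosomal genes, and Cd68, Acp5, Atp6v0d2 and Nfatc1 stand in 2 lists each.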

Additional observations from a re-analysis of the deposited data

Results flagged for a closer look

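In PPE week 1, replicate 2 had 357 CPM of Ctsl, set apart from the other 3 libraries of the group at 391 to 397 CPM by more than Dixon's 95% limit for 4 values. Chance marks about 1 in 20 groups, and 27 groups were examined (9 genes in 3 groups).

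Ctsb differed between the PPE groups: in PPE week 2 against PPE week 1, the log2 fold change was -0.70 with an edgeR adjusted p of 0.00493, and all 4 PPE week 2 libraries were lower. For Cst3 the same comparison gave a log2 fold change of 0.57 with an edgeR adjusted p of 0.0296, with all 4 PPE week 2 libraries higher. Without a saline group at day 14, a change in the effect of PPE and the extra week after the infusion cannot be told apart in either.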

How the results depend on the processing

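Over 8 genes, 3 comparisons and 23 alternatives, 500 of the 552 values kept direction and side of the threshold, 29 lost their call, 13 gained one and 10 changed sign. Accessions called in PPE week 1 against saline, 1007 as reported (508 higher, 499 lower), were 1646 with DESeq2, 2026 with the 8 libraries compared alone and 82 with the ribosomal precursor share as covariate, and 378 to 1395 without 1 library. In PPE week 2 against saline, 338 as reported (166 and 172), they were 795 with DESeq2, 74 with 8 libraries, 204 with the replicate number as a block, 1634 with library size alone, 0 with the covariate (edgeR, 764 at an unadjusted p under 0.05) and 140 to 381 without 1 library. In PPE week 2 against PPE week 1, 841 as reported (481 and 360), they were 1520 with DESeq2, 521 with 8 libraries, 69 with the covariate and 319 to 1213 without 1 library. With library size alone the calls split into 1032 higher and 195 lower, 1607 and 27, and 681 and 75, in the same order. The covariate gave 23 higher and 59 lower in the first and 54 and 15 in the last comparison, limma-voom 458 and 694 in the last, and library size without NR_046233 and without TMM, chosen after seeing the data, 203 and 130 in the second. Cathepsin and cystatin genes called higher at PPE week 1 against saline, 2 as reported, were 0 with the covariate and 0 to 2 without 1 library. Those lower there, 1 as reported (Ctsl), were 0 with the covariate, without the low-count filter (adjusted p 0.0516), with the replicate block (0.0588) and with library size alone, and 0 to 1 without 1 library. At PPE week 2 against saline, 2 were higher with library size alone (Ctsz 0.79 and Cst3 0.74) and 0 to 0 without 1 library. There, 0 were lower with the covariate, 8 libraries (Ctsl adjusted p 0.0569) and library size alone, and 1 to 1 without 1 library. Between the PPE groups, 0 were higher with the covariate and with 8 libraries (Cst3 adjusted p 0.0554), and 0 to 1 without 1 library. Lower there, 1 as reported (Ctsb), were 2 with DESeq2, 3 with limma-voom, 3 without the filter, 2 with the replicate block, 0 with the covariate, 0 with library size alone and 1 to 3 without 1 library. Ctsh passed with DESeq2, limma-voom, no filter and the replicate block, and Ctsd with limma-voom and no filter. Among the fits without 1 library, Ctsd passed without PPE week 2 replicate 1 (0.0160), Ctsh without replicate 2 (0.0310) or 4, and Ctsz without replicate 4 (0.0113). Signs changed only for genes not called: Ctsb at PPE week 2 against saline, 0.38 with library size alone and -0.24 to 0.0032 without 1 library, positive only without PPE week 2 replicate 3. Ctsd there was 0.28 and Ctsk 0.16 with library size alone, and Ctsk 0.090 with the covariate. Ctsk between the PPE groups was 0.17 with the covariate, 0.19 with library size alone, and -0.20 to 0.13 without 1 library, positive at 0.13, 0.068 and 0.089 without PPE week 1 replicate 1 and PPE week 2 replicates 2 and 4. The cause of these shifts was not tested. Replicate numbers do not pair the libraries: 0 of 12 same-numbered pairs had deviations with r over 0.1 (-0.0881 to 0.0353). With 4 libraries a group, SEs of 0.11 to 0.34 on the log2 scale limit what could be called, most of all for Ctsh, and Ctsa and Ctss were beyond the depth or the counting.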

Other observations

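Markers of other cell types were counted in the same fit. Of 13 smooth muscle markers, all tested, 9 fell at PPE week 1 against saline (median log2 fold change -1.53), none passed at PPE week 2 against saline (median 0.095), and 9 rose in PPE week 2 against PPE week 1 (median 1.63). Their summed level was 6172 to 13512 CPM in PPE week 2, 2249 to 4048 CPM in PPE week 1 and 7469 to 9671 CPM in saline. The 9 and 9 were 9 to 10 and 9 to 9 in the fits without 1 library, but 3 and 2 with the ribosomal precursor share as a covariate. With that covariate, the counts given below for the other lists were 0, except for 1 fibroblast marker that fell between the PPE groups. Of 12 fibroblast markers, all tested, 5 fell at PPE week 1 (median -0.61) and 5 at PPE week 2 against saline (median -0.70), and 2 rose and 1 fell between the PPE groups (median -0.21). Cthrc1, a gene of activated fibroblasts, averaged 11.5 ± 4.46 CPM in PPE week 2, 52.9 ± 14.4 in PPE week 1 and 47.5 ± 13.9 in saline. Leaving out any 1 PPE week 1 or saline library cut the first count of 5 to between 1 and 3, and leaving out PPE week 2 replicate 4 or saline replicate 3 or 4 cut the second to 2 or 3.

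Of 14 genes of antigen presentation by MHC class II, 13 were tested and H2-DMa alone rose at PPE week 1 (median 1.37), with none called at PPE week 2 (median 0.57) or between the PPE groups (median -0.61). The H2-DMa call was lost without any 1 PPE week 1 or saline library. The number of genes of this list called higher at PPE week 1 depended on the fit. It was 8 with the 8 libraries compared alone, 5 with DESeq2 and 2 with limma-voom or library size alone. Without the low-count filter it was 0, and without PPE week 2 replicate 1 or 3 it was 4 or 3. The sum of that list was 674, 3115, 686 and 3303 CPM in PPE week 2, 2919, 2956, 2884 and 2853 CPM in PPE week 1, and 1189, 1118, 1224 and 887 CPM in saline, so PPE week 2 replicates 2 and 4 stood at or above the PPE week 1 level and replicates 1 and 3 below saline. Of 12 T and natural killer cell markers 10 were tested and 3 rose at PPE week 1 (median 2.48), none passed at PPE week 2 (median 1.56) and 1 fell between the PPE groups (median -1.10). The count of 3 was 1 without PPE week 1 replicate 2, 3 or 4 or saline replicate 3 or 4, and 6 without PPE week 2 replicate 1. Of 8 mast cell markers 5 were tested, and Hdc, the histamine-forming enzyme, rose at PPE week 1 and fell in PPE week 2 against PPE week 1 (medians over the list 0.033 and 0.38, and 0.61 at PPE week 2 against saline). Its second call was lost when replicate 2 or 4 of PPE week 1, or 1 or 2 of PPE week 2, was left out. Of 11 endothelial markers 8 were tested, and 2 rose in PPE week 2 against PPE week 1, Vwf and Nos3 (median -0.095), while none passed against saline (medians -0.080 at PPE week 1 and -0.023 at PPE week 2). Without PPE week 1 replicate 1 or 2 neither passed, and without replicate 3 of either PPE group only 1. Of 12 neutrophil markers 5 were tested and none passed in any comparison, with medians of 2.82 at PPE week 1 and -0.17 at PPE week 2, both against saline, and of -2.99 between the PPE groups. Of 9 adipocyte markers 7 were tested and none passed, with medians of -1.08, 0.080 and 1.15 in the same order.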
